A study of Mus musculus with 6 samples.

Results

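Glycogen is the branched glucose polymer that cells keep as a reserve, and the early embryonic heart is known as a glycogen-rich tissue. It is built from glucose 1-phosphate, which phosphoglucomutase makes from glucose 6-phosphate and UDP-glucose pyrophosphorylase activates to UDP-glucose. Glycogenin primes a new particle, glycogen synthase extends its chains and the branching enzyme adds branch points, while glycogen phosphorylase releases glucose 1-phosphate from the chain ends. Protein phosphatase 1 (PP1), brought to the particle by glycogen-targeting subunits, removes phosphates from these enzymes and so turns synthase on and phosphorylase off.

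The genes described here are the 9 rows of the raw count table, of 54532 rows in all, whose symbols are *Gys1* (muscle-type glycogen synthase), *Gbe1* (branching enzyme), *Gyg* (glycogenin), *Ugp2* (UDP-glucose pyrophosphorylase), *Pgm1*, *Pgm2*, *Pygl* (liver-type phosphorylase), *Pygb* (brain-type phosphorylase) and *Ppp1r3c* (the PP1 targeting subunit also called PTG). Each symbol matched 1 row, and all 9 passed the filter on low counts. The names of the phosphoglucomutases need care: the row that the table calls *Pgm2* (ENSMUSG00000025791, chromosome 4) is named *Pgm1* in the reference annotation and encodes the main phosphoglucomutase, and the row that it calls *Pgm1* (ENSMUSG00000029171, chromosome 5) is named *Pgm2* there and encodes a relative that acts mainly on pentose phosphates. The symbols of the table are kept throughout.

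RNA was sequenced from individual mouse hearts at embryonic day 9.5 (E9.5), 3 from wild-type (WT) embryos and 3 from *Smyd1-KO* embryos, which are homozygous for a null allele of *Smyd1*, a methyltransferase gene of striated muscle. The allele is a constitutive knockout, so every cell type of the embryo carried it. The hearts were whole, received no treatment and came from embryos of either sex, and the comparison asks which transcripts change when SMYD1 is absent. Total counts ranged from 48627825 to 64217529 per heart.

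*Smyd1* itself was measured at 101, 222 and 206 counts per 1000000 (CPM) in the 3 *Smyd1-KO* hearts and at 414, 379 and 270 CPM in the WT hearts. Every *Smyd1-KO* heart was below every WT heart, although edgeR's quasi-likelihood test with Benjamini-Hochberg adjustment did not call the difference (adjusted p = 0.0973) where DESeq2 did (adjusted p = 0.00534), and a count over the whole gene does not show which exons are missing. One library stood apart: the summed level of 10 cardiomyocyte markers was 9315 CPM in *Smyd1-KO* heart 1, where the other *Smyd1-KO* hearts had 19050 and 19233 CPM and the WT hearts 12492 to 20921 CPM. The same heart had the highest summed level of 5 neural markers (131 CPM, against 16.4 to 43.5 CPM in the other hearts) and of 5 skeletal muscle precursor markers (32.5 CPM, against 0.123 to 1.61 CPM). The fit described below called 0 of 10 cardiomyocyte, 0 of 8 endothelial and 0 of 5 epicardial markers between genotypes (1, 4 and 2 at an unadjusted edgeR p under 0.05; 0, 3 and 2 called by DESeq2). The summed epicardial level was 137 to 255 CPM in the *Smyd1-KO* hearts, above the 100 to 124 CPM of the WT hearts, and its part in the results below was not tested. Of 8 erythroid markers 2 were called lower in *Smyd1-KO* hearts, 7 at an unadjusted p under 0.05 and 5 by DESeq2 (summed level 27.3 to 274 CPM, against 721 to 945 CPM in WT). Over all 19372 genes tested, 4857 had an unadjusted p under 0.05 in the same edgeR fit. The hearts are bulk samples, in which fewer cells of a type and less RNA per cell cannot be told apart.

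To place the genes beside each other, mean CPM was divided by each gene's exonic length in kilobases (kb). *Gyg* had the highest level in WT hearts, 231 ± 62.9 CPM per kb (SD, n = 3), followed by *Pgm2* at 54.9 ± 14.1, *Pygb* at 38.4 ± 5.58, *Ugp2* at 28.9 ± 4.22 and *Gys1* at 25.5 ± 3.00 CPM per kb. *Ppp1r3c* (16.5 ± 3.06), *Pgm1* (7.64 ± 0.858), *Pygl* (7.59 ± 1.51) and *Gbe1* (5.0 ± 0.734 CPM per kb) were lower. Among neighbours in this order, *Gyg* did not overlap *Pgm2*, *Gys1* did not overlap *Ppp1r3c*, *Ppp1r3c* did not overlap *Pgm1* and *Pygl* did not overlap *Gbe1*. The other neighbours overlapped between hearts and were not separable. In *Smyd1-KO* hearts the order was *Gyg* (244 ± 90.0), *Pgm2* (133 ± 41.8), *Gys1* (56.5 ± 13.9), *Ppp1r3c* (35.7 ± 10.9), *Pygb* (33.5 ± 4.87), *Ugp2* (29.9 ± 6.20), *Pygl* (19.7 ± 5.81), *Gbe1* (10.3 ± 1.57) and *Pgm1* (7.66 ± 1.35 CPM per kb), where only the pairs *Pgm2* and *Gys1*, and *Pygl* and *Gbe1*, did not overlap among neighbours. *Gys1* and *Ppp1r3c* thus stood below *Pygb* and *Ugp2* in WT hearts and above them in *Smyd1-KO* hearts by their means, with *Smyd1-KO* heart values that overlapped for *Ppp1r3c*. With principal transcript lengths this order changed: *Gys1* and *Ugp2* were level in WT hearts (33.2 and 33.1 CPM per kb), and *Ppp1r3c* (35.7) was below *Pygb* (41.2) in *Smyd1-KO* hearts. The place of *Pygl* depends on the length most, because its annotated exons cover 6895 bases and its principal transcript 2825: per kb of principal transcript its WT level was 18.5 and its *Smyd1-KO* level 48.0 CPM per kb.

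**Figure D1:**
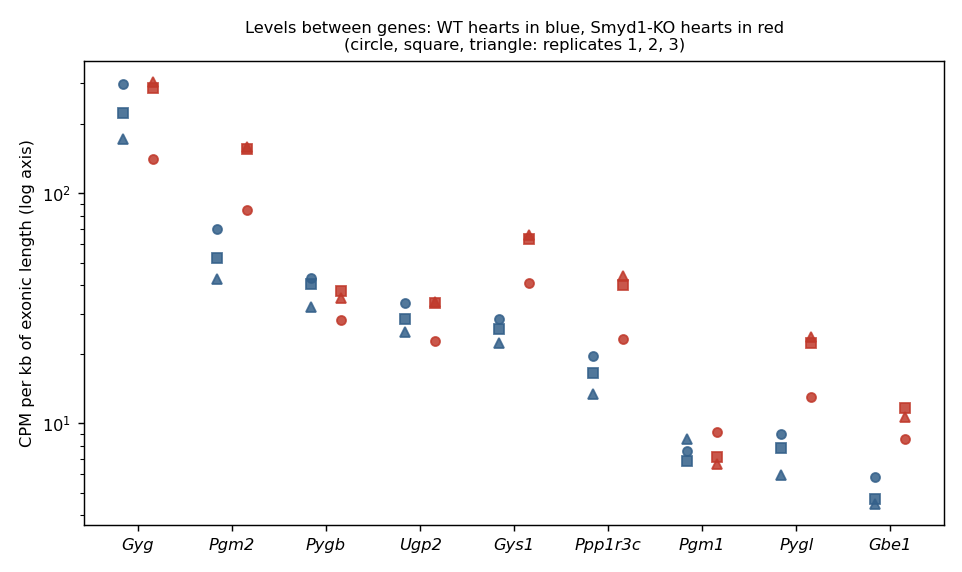
CPM per kb of exonic length (log axis) of the 9 glycogen genes in each heart, ordered by the WT mean, with WT hearts in blue and *Smyd1-KO* hearts in red. *Gyg* leads in both genotypes, and the red points lie above the blue points for *Pgm2*, *Gys1*, *Ppp1r3c*, *Pygl* and *Gbe1*.

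Of the 9 genes, 5 rose in *Smyd1-KO* hearts, 4 did not pass the test and none fell. A gene is called changed here where its adjusted p is under 0.05 and its log2 fold change is 0.5 or more in either direction. Over all 19372 genes tested, 2.86% were called higher and 1.42% lower, or 4.28% in either direction. In each of the 5 genes every *Smyd1-KO* heart lay above every WT heart, as did 15.9% of all genes tested. The median log2 fold change was 1.04 over the 9 genes and -0.00255 over all genes tested. The risers were glycogen synthase, the branching enzyme, the main phosphoglucomutase, liver-type phosphorylase and PTG, so they came from synthesis, breakdown and control alike.

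On the synthesis side, *Gys1* (chr7:45434844-45456619 in GRCm38, + strand), whose product adds glucose units to the growing chain, was at 194, 302 and 316 CPM in the *Smyd1-KO* hearts, against 136, 123 and 107 CPM in the WT hearts. The groups did not overlap, and *Smyd1-KO* heart 1 was the lowest of its group. The fold change was 2.22 (log2 1.15 ± 0.19 SE, adjusted p = 0.0216 by edgeR). Of its exonic length, 6.47% overlaps exons of *Ruvbl2* on the opposite strand, and whether counting used the strand is not given in the sources used here.

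*Gbe1* (chr16:70313949-70569716, + strand), the enzyme that introduces branch points, was at 45.7, 62.1 and 56.8 CPM in the *Smyd1-KO* hearts, against 31.2, 25.1 and 23.9 CPM in the WT hearts. Again the groups were separate. It was 2.05-fold higher in *Smyd1-KO* hearts (log2 1.04 ± 0.15 SE, adjusted p = 0.0148) and had the lowest coefficient of variation of the risers among *Smyd1-KO* hearts, 15.3% against 24.6% for *Gys1* and 29.5% to 31.4% for *Pygl*, *Ppp1r3c* and *Pgm2*. Among WT hearts *Gys1* varied least of the 5 (11.8%, against 14.7% for *Gbe1*).

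The other synthesis genes did not pass the test. *Gyg* (chr3:20122084-20155317, - strand), the primer of new particles, was at 329, 670 and 714 CPM in the *Smyd1-KO* hearts, against 698, 521 and 405 CPM in the WT hearts. The hearts of both genotypes covered nearly the same range, with *Smyd1-KO* heart 1 the lowest of all 6. Its fold change was 1.06, with a 95% confidence interval from 0.634 to 1.76 (adjusted p = 0.904), so a change of the size seen in *Gys1* lay outside the interval while smaller ones did not.

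*Ugp2* (chr11:21321138-21371201, - strand), which makes UDP-glucose, was at 69.8, 102 and 103 CPM in the *Smyd1-KO* hearts, against 102, 87.3 and 76.7 CPM in the WT hearts, with a fold change of 1.03 (95% confidence interval 0.779 to 1.37, adjusted p = 0.895). *Smyd1-KO* heart 1 was again the lowest of the 6 hearts, and the other *Smyd1-KO* hearts were level with the highest WT heart.

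*Pgm2* (chr4:99929414-99987294, + strand), the main phosphoglucomutase, stands between glucose 6-phosphate and glycogen in both directions. It was at 248, 457 and 462 CPM in the *Smyd1-KO* hearts, against 205, 153 and 123 CPM in the WT hearts. No *Smyd1-KO* heart reached down to the WT range, although *Smyd1-KO* heart 1 was much nearer to it than the others were. The fold change was 2.43 (log2 1.28 ± 0.28 SE, adjusted p = 0.0449), and 13.6% of its exonic length overlaps exons of *Itgb3bp* on the opposite strand. *Pgm1* (chr5:64092950-64128351, + strand), the relative that acts mainly on pentose phosphates, was at 23.8, 18.6 and 17.2 CPM in the *Smyd1-KO* hearts, against 19.6, 17.7 and 22.1 CPM in the WT hearts. It showed no difference that the test could detect (fold change 1.0, 95% confidence interval 0.781 to 1.29, adjusted p = 0.989).

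On the breakdown side, *Pygl* (chr12:70190811-70231488, - strand), the liver-type phosphorylase, had the largest fold change of the 9 genes. It was at 89.7, 154 and 163 CPM in the *Smyd1-KO* hearts, against 62.0, 53.7 and 41.3 CPM in the WT hearts. The groups did not overlap, and the fold change was 2.59 (log2 1.37 ± 0.25 SE, adjusted p = 0.0269). *Pygb* (chr2:150786735-150831758, + strand), the brain-type phosphorylase, was at 135, 180 and 168 CPM in the *Smyd1-KO* hearts, against 206, 194 and 155 CPM in the WT hearts. Its groups overlapped, and the test did not call it (fold change 0.872, 95% confidence interval 0.687 to 1.11, adjusted p = 0.443).

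*Ppp1r3c* (chr19:36731731-36736653, - strand), which brings PP1 to glycogen, was at 63.6, 109 and 119 CPM in the *Smyd1-KO* hearts, against 53.4, 44.9 and 36.7 CPM in the WT hearts. The groups were separate, with *Smyd1-KO* heart 1 not far above the highest WT heart. The fold change was 2.16 (log2 1.11 ± 0.24 SE, adjusted p = 0.0462).

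**Figure D2:**
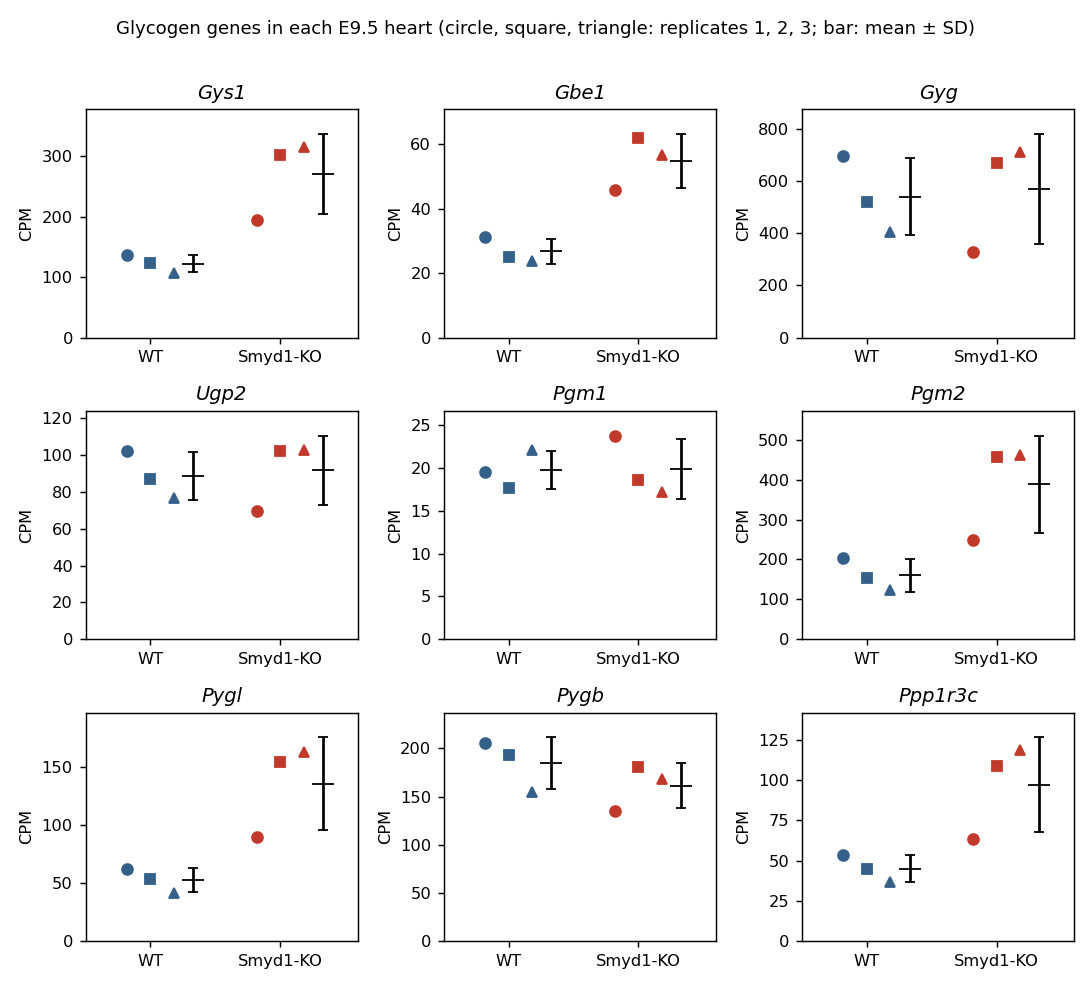
CPM of each of the 9 glycogen genes in every heart, 1 panel per gene with its own axis from 0; symbols mark replicates 1, 2 and 3 and bars the mean ± SD (n = 3). All *Smyd1-KO* hearts lie above all WT hearts for *Gys1*, *Gbe1*, *Pgm2*, *Pygl* and *Ppp1r3c*, and the groups overlap for *Gyg*, *Ugp2*, *Pgm1* and *Pygb*.

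The calls depended on which hearts entered the fit. Without *Smyd1-KO* heart 1 all 5 calls held, with fold changes of 2.53 for *Gys1*, 2.23 for *Gbe1*, 2.87 for *Pgm2*, 3.03 for *Pygl* and 2.54 for *Ppp1r3c* (adjusted p from 0.00222 to 0.00883 by edgeR). Without *Smyd1-KO* heart 2, WT heart 2 or WT heart 3 none of the 9 genes was called, and without *Smyd1-KO* heart 3 or WT heart 1 *Gbe1* alone was, while 5 of the 9 had an unadjusted p under 0.05 in edgeR in each of these fits. With all 6 hearts, 4857 of the 19372 genes tested had such a p, and the number over all genes was not counted for the smaller fits. Over all genes the share called was 6.28% without *Smyd1-KO* heart 1 and 0.489% to 2.51% without each of the other hearts. Through all 6 of these fits the log2 fold changes of the 5 genes stayed between 0.94 and 1.6.

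For most of the genes, the heart with the lowest level in its group was also the lowest in cardiomyocyte markers. Within the *Smyd1-KO* group, heart 1 had the lowest CPM for 8 of the 9 genes, with *Pgm1* as the exception, and within the WT group heart 3 had the lowest CPM for 8 of 9, again except *Pgm1*. These are also the hearts with the lowest summed cardiomyocyte markers of their groups (9315 and 12492 CPM). How many of all genes tested were lowest in the same hearts was not counted. Expressed per 1000 CPM of the summed markers, a scaling added after the data were seen, *Gys1* was at 20.9, 15.8 and 16.4 in *Smyd1-KO* hearts and at 6.51, 6.32 and 8.6 in WT hearts. *Pygl* was at 9.63, 8.08 and 8.49, against 2.97, 2.76 and 3.31. On this scale the 5 risers kept separate groups, with log2 differences of 1.23 for *Gbe1* to 1.54 for *Pygl*. The marker sum was lower on average in *Smyd1-KO* hearts (15866 CPM, against 17625 CPM in WT hearts), so the scaling itself raised the difference of every gene. The share of all genes with separate groups on this scale was not computed.

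The same scaling drew the *Gyg* values of *Smyd1-KO* hearts together, to 35.3, 35.2 and 37.1 per 1000 marker CPM, against 33.3, 26.8 and 32.4 in WT hearts. Its *Smyd1-KO* hearts then all lay above the WT hearts, by 0.22 on the log2 scale, and its SD among *Smyd1-KO* hearts fell from 0.62 to 0.043 (log2). That difference includes the rise that the scaling gave every gene. On the same scale *Ugp2* differed by 0.23 and *Pgm1* by 0.19 with overlapping groups, and *Pygb* by -0.0061. Over the 9 genes the SD was smaller on this scale for 6 genes among *Smyd1-KO* hearts and for 5 among WT hearts. Of the risers, *Gbe1* had a larger SD in both groups (0.23 to 0.39 among *Smyd1-KO* and 0.21 to 0.29 among WT hearts, log2). *Gys1* had a larger SD among WT hearts (0.17 to 0.25). *Pgm1* moved the other way: *Smyd1-KO* heart 1 had the highest *Pgm1* of the 6 hearts both in CPM and per 1000 marker CPM (2.55, against 0.894 to 1.77). Markers of hepatoblasts and yolk sac endoderm, the lineages of the liver-type isoforms, were listed because *Pygl* is one. Their summed level was 23.2, 0.812 and 73.7 CPM in the *Smyd1-KO* hearts, against 1.18, 33.6 and 17.4 CPM in the WT hearts. *Smyd1-KO* heart 3 had the highest level of all 6 hearts for both these markers and *Pygl* (163 CPM). *Smyd1-KO* heart 2, with 154 CPM of *Pygl*, had the lowest marker level. The part of cell composition in the differences between genotypes was not tested.

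**Figure D3:**
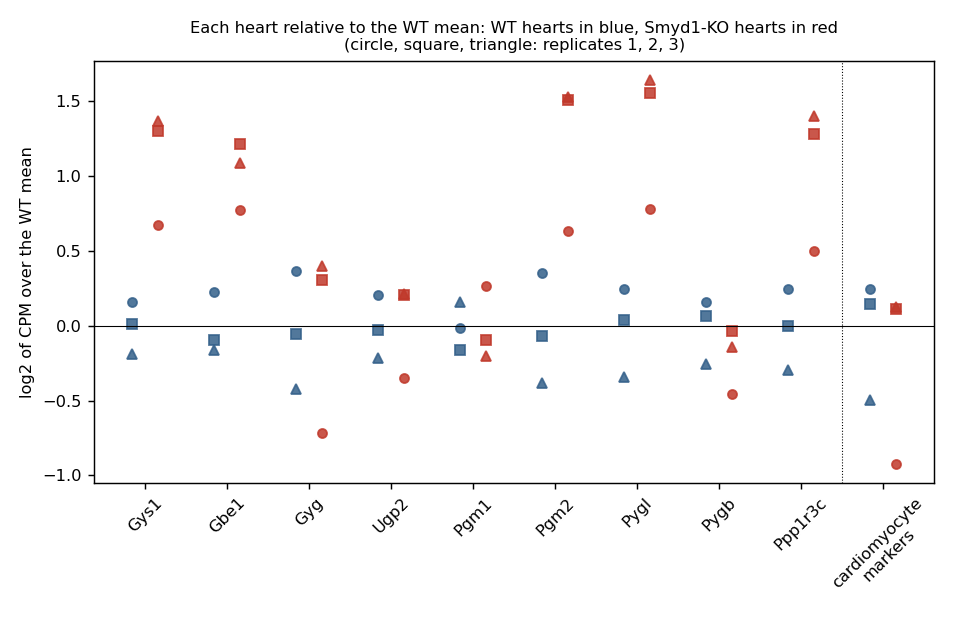
log2 of the CPM in each heart over the WT mean for the 9 glycogen genes and for the summed CPM of 10 cardiomyocyte markers (right of the dotted line), WT hearts in blue and *Smyd1-KO* hearts in red. *Smyd1-KO* heart 1 (red circle) is the lowest red point for every gene but *Pgm1* and is at -0.92 for the markers, where the other *Smyd1-KO* hearts are at 0.11 and 0.13.

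Ratios of 2 genes within a heart do not depend on library size, and 3 were compared. The log2 ratio of *Pygl* to *Pygb* counts was -0.29 ± 0.28 (SD, n = 3) in *Smyd1-KO* hearts and -1.83 ± 0.089 in WT hearts. The groups did not overlap, and the difference of 1.54 gave p = 0.1 in a two-sided exact permutation test, the smallest p that 3 against 3 hearts allow (adjusted p = 0.15 over the 3 ratios, exact permutation test). The ratio of *Gys1* to *Pygl* differed by -0.22 on the log2 scale, 1.01 ± 0.090 against 1.24 ± 0.13, also without overlap and also at the smallest exact permutation p of 0.1. The ratio of *Pgm1* to *Pgm2* was -4.25 ± 0.75 in *Smyd1-KO* hearts and -2.99 ± 0.47 in WT hearts, a difference of -1.26 with overlapping groups (exact permutation p = 0.2).

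The makeup of the isoform families was taken as shares of summed counts per kb and was not tested. A rise of 1 member lowers the shares of the others. Some shares had separate groups among the phosphorylases, the phosphoglucomutases and the PP1 targeting subunits, while those of the synthases overlapped. Among the phosphorylases, *Pygl* held 22.8%, 23.6% and 26.1% in *Smyd1-KO* hearts and 10.0%, 9.46% and 9.98% in WT hearts. *Pygb* held 42.5% ± 5.90 and 50.1% ± 3.09, and the muscle-type *Pygm* 33.3% ± 4.75 and 40.1% ± 3.19 (SD, n = 3), both with overlapping groups. Brain-type phosphorylase was therefore the largest part in every heart on this scale. With principal transcript lengths in place of exonic lengths, the mean share of *Pygl* was 39.7% in *Smyd1-KO* and 18.4% in WT hearts, and that of *Pygb* 35.2% and 47.2%, so that *Pygl* rather than *Pygb* led in *Smyd1-KO* hearts by that choice.

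Among the phosphoglucomutases *Pgm2* held 79.2% ± 3.21 in *Smyd1-KO* and 60.4% ± 3.33 in WT hearts. The share of *Pgm5*, a muscle relative located at cell junctions and without known catalytic activity, was 14.1% ± 0.124 and 28.0% ± 2.72, while its own level did not pass the test (log2 fold change -0.11, adjusted p = 0.828). *Pgm2l1*, a brain-enriched relative that makes glucose 1,6-bisphosphate, held 1.56% ± 0.605 and 2.79% ± 0.984. Of the synthases, *Gys1* made up 99.9% or more in every heart. The liver synthase *Gys2* had 3, 0 and 2 counts in *Smyd1-KO* hearts and 0, 1 and 0 in WT hearts, at or under the limit of 3 counts that a count of 0 allows, and was not tested.

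**Figure D4:**
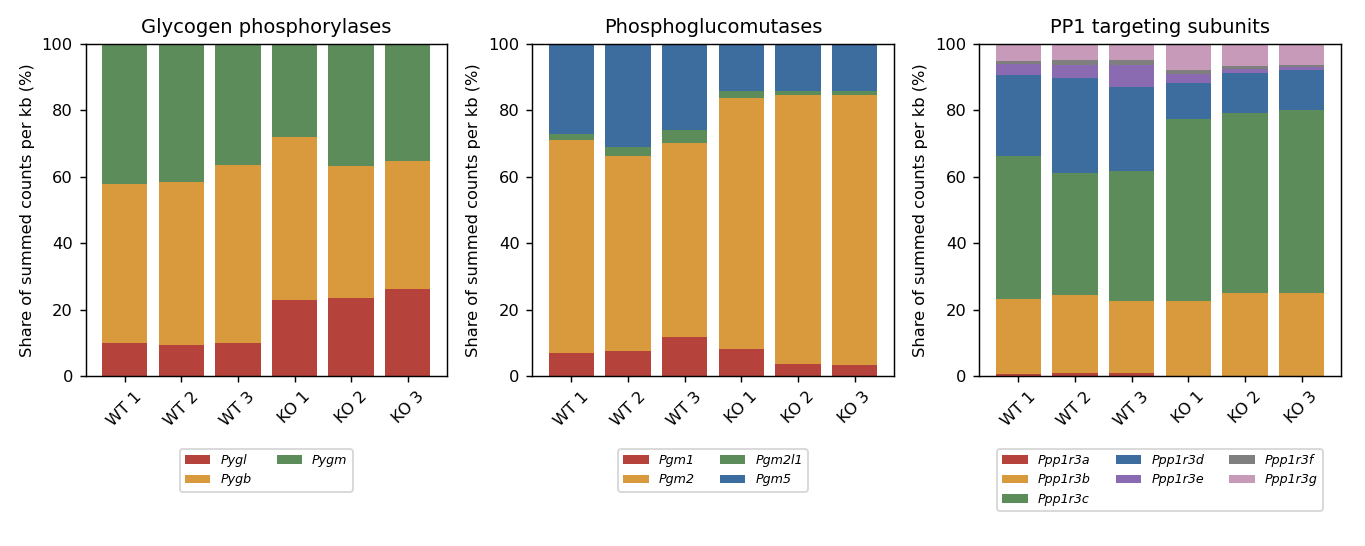
Share of each isoform in the summed counts per kb of exonic length (%), for phosphorylases, phosphoglucomutases and PP1 targeting subunits, with 1 bar per heart. The *Smyd1-KO* bars hold more *Pygl* (22.8% to 26.1%), *Pgm2* and *Ppp1r3c* than the WT bars, and less *Pgm5* and *Ppp1r3d*.

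The PP1 targeting subunits were the family with changes in both directions. *Ppp1r3c* was the most abundant per kb in every heart and held 54.7% ± 0.501 of the family in *Smyd1-KO* hearts and 39.7% ± 3.27 in WT hearts. *Ppp1r3g*, another subunit that drives synthesis, was at 8.97, 13.4 and 13.8 CPM in the *Smyd1-KO* hearts, against 6.16, 5.97 and 4.44 CPM in the WT hearts, and rose 2.18-fold (log2 1.13 ± 0.22 SE, adjusted p = 0.0344 by edgeR). *Ppp1r3a*, the subunit of adult striated muscle, fell: it was at 0.658, 0.964 and 0.893 CPM in the *Smyd1-KO* hearts, against 2.65, 3.17 and 2.13 CPM in the WT hearts (log2 fold change -1.65 ± 0.25 SE, adjusted p = 0.0173). Leaving out any heart but *Smyd1-KO* heart 1 ended both calls (*Ppp1r3g* adjusted p up to 0.134 and *Ppp1r3a* up to 0.09 by edgeR). *Ppp1r3a* was at a low level in both genotypes and held 0.190% and 0.916% of the family.

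The liver subunit *Ppp1r3b* was at 59.5, 115 and 122 CPM in the *Smyd1-KO* hearts, against 63.1, 65.6 and 46.0 CPM in the WT hearts. *Smyd1-KO* heart 1 lay within the WT range and the other *Smyd1-KO* hearts above it (log2 fold change 0.76, adjusted p = 0.138). *Ppp1r3e* had a log2 fold change of -0.94 (adjusted p = 0.0864), with separate groups of 1.80 to 3.15 and 3.69 to 5.63 CPM. Both were called by DESeq2 and by edgeR without *Smyd1-KO* heart 1, and by none of the other alternatives. *Ppp1r3d* had a log2 fold change of -0.50 (adjusted p = 0.302) and *Ppp1r3f* one of -0.06 (adjusted p = 0.866), and neither was called under any alternative.

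In the rest of the pathway most genes did not pass the test. Of 28 further genes of glycogen metabolism, 26 could be tested, 2 rose, 1 fell and 23 did not pass, with a median log2 fold change of 0.0045. The 3 called are 11.5% of those tested, where 4.28% of all genes were called. All 3 were called without *Smyd1-KO* heart 1, and none when any other single heart was left out (adjusted p up to 0.134 by edgeR). The risers were *Ppp1r3g* and *Epm2a*, which encodes laforin, a phosphatase that removes phosphate from glycogen. *Epm2a* was at 8.95, 14.6 and 17.4 CPM in the *Smyd1-KO* hearts, against 5.0, 4.95 and 4.4 CPM in the WT hearts, a 2.85-fold rise with separate groups (log2 1.51 ± 0.25 SE, adjusted p = 0.0208, and up to 0.109 with 1 heart left out). Its partner *Nhlrc1*, for the ubiquitin ligase malin and named here after its values were seen, had a log2 fold change of -0.07 (adjusted p = 0.953).

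The muscle phosphorylase *Pygm* did not pass the test (log2 fold change -0.18, adjusted p = 0.756), and its groups overlapped. None of the 5 phosphorylase kinase subunits was called (log2 fold changes from -0.32 to 0.45), none of the 3 catalytic subunits of PP1 (-0.09 to 0.24), neither of the synthase kinases *Gsk3a* and *Gsk3b*, and neither *Stbd1* nor *Gaa* of the lysosomal route. At an unadjusted p under 0.05 in edgeR these groups held 2, 1, 1 and 1 genes, where 4857 of all 19372 genes tested were under it. DESeq2 called none of the genes in these groups. *Slc37a4*, the transporter that brings glucose 6-phosphate into the endoplasmic reticulum, was singled out after its values were seen: its *Smyd1-KO* hearts were at 15.98, 30.5 and 31.3 CPM and its WT hearts at 13.4, 12.5 and 11.6 CPM, and it missed the threshold (log2 fold change 1.05, adjusted p = 0.0569 by edgeR). DESeq2 and edgeR without a low-count filter or without *Smyd1-KO* heart 1 called it. The hydrolase that acts on that sugar in liver, *G6pc*, had 0 to 3 counts per heart. The remaining genes of the list, *Pgm3* and *G6pc3*, had log2 fold changes of 0.0019 and 0.18 and were not called.

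**Figure D5:**
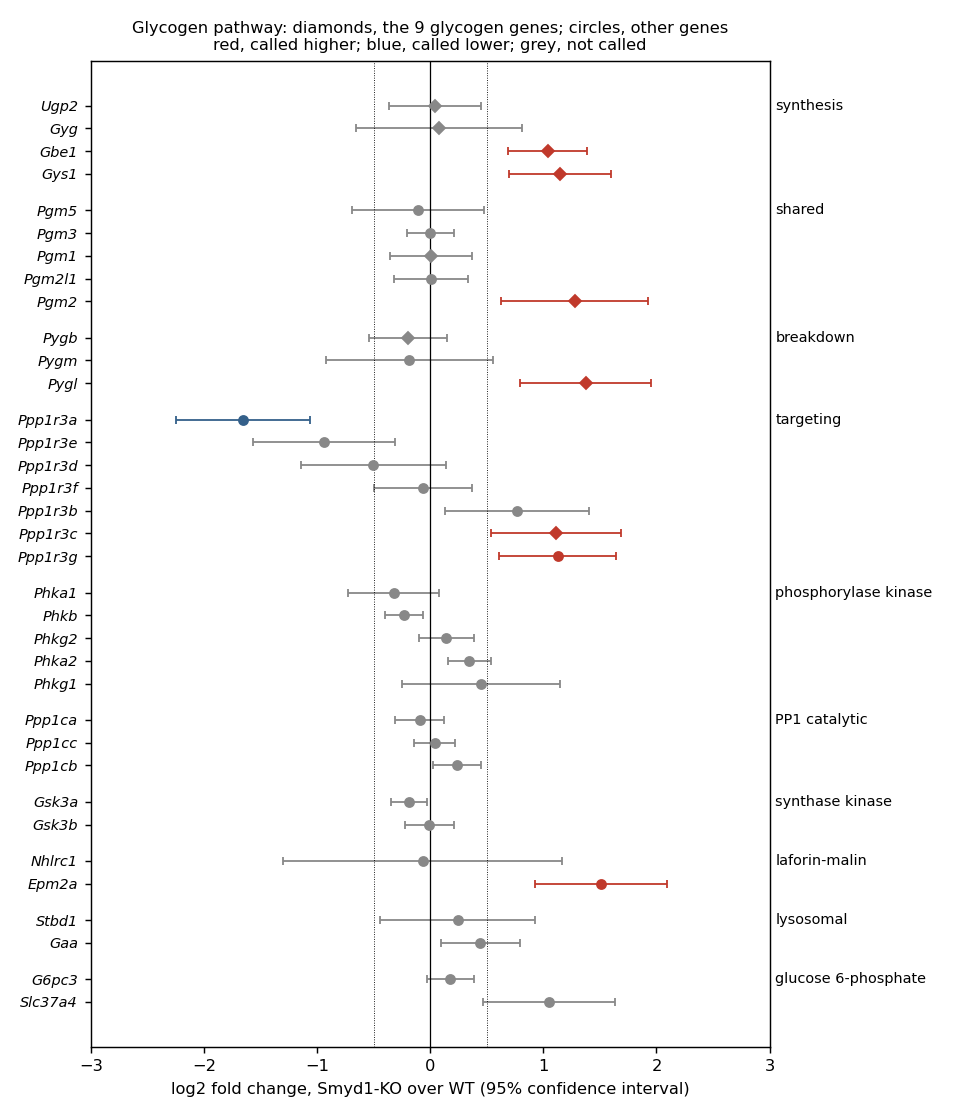
log2 fold change of *Smyd1-KO* over WT with its 95% confidence interval for the 35 tested genes of glycogen metabolism, grouped by role; diamonds mark the 9 genes, dotted lines the fold limit of 0.5. Red points are the 7 genes called higher, and the blue point is *Ppp1r3a*, called lower at -1.65.

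Because hypoxia response is a theme of the study, the promoter windows of the 9 genes (250 bases before to 50 after each start, RefSeq, GRCm38.p6) were searched on both strands for ACGTG and GCGTG, the core letters of the hypoxia response element. All 9 genes had a window and *Ugp2* had 2. The letters ACGTG were in the windows of 7 of the 9 genes (7 of their 10 windows) and in 19.6% of all 32851 windows. GCGTG was in those of 5 genes (5 of the 10 windows) and in 32.4% of all windows. Windows were not matched for CpG content, which both motifs need.

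The letters did not separate the genes that rose from those that did not: ACGTG was found for 3 of the 5 that rose (*Pgm2*, *Pygl* and *Ppp1r3c*) and for all 4 that were not called, and neither motif was in the windows of *Gys1* and *Gbe1*. The ACGTG matches of *Gyg* lay after the start. Before the start, ACGTG was found for 3 of the 5 that rose and 3 of the 4 that were not called. The stretches below show the matches of the 3 risers and, for comparison, that of *Pygb*, the phosphorylase that was not called. They are written 5′ to 3′ on the strand of the gene, with ACGTG or its reverse complement CACGT in capitals, and the gene's start is position 0.
*Pgm2* at -208 (chr4:99929231-99929259, + strand): tctggaatgtatACGTGacactctagtcc
*Pgm2* at -181 (chr4:99929258-99929286, + strand): ccaatcacagtaACGTGctgaactcttcg
*Pygl* at -131 (chr12:70227792-70227832, - strand): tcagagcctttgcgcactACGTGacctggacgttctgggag
*Ppp1r3c* at -189 (chr19:36736771-36736811, - strand): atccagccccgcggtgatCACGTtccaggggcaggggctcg
*Ppp1r3c* at -104 (chr19:36736686-36736726, - strand): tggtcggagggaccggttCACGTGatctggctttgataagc
*Pygb* at -163 (chr2:150786615-150786655, + strand): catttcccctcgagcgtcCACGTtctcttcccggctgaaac

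The *Ppp1r3c* match at -104 reads CACGTG and therefore counts on both strands. The *Pgm2* stretches lie within an annotated exon of *Itgb3bp*, the neighbour on the opposite strand, and the other stretches in no annotated exon. For *Pygl*, the gene annotation extends beyond the RefSeq start used here, to position 70231488 of chromosome 12, so that its stretch lies within the annotated gene. A match of these letters is a description of the sequence and was not tested for binding or for effect.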

How the data were processed

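Poly A RNA from individual E9.5 hearts was sequenced by the authors (75 bp paired-end reads) and aligned to mm10 with STAR; the counting tool, its annotation release and its strand setting are not given in the sources used here. The deposited counts are raw whole numbers per gene, and a second deposited table holds a normalized signal, the same counts divided by 1 size factor per heart, which was used for a check only. Each count column matched 1 heart, and all hearts of a group differed by more than sampling noise.

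The whole count table was fitted with edgeR 4.0.16 (TMM, filterByExpr, quasi-likelihood test, Benjamini-Hochberg over 19372 genes), with the fold and p thresholds of the study's methods. CPM used TMM-scaled library sizes without a prior count. Intervals are 95% confidence intervals. Ratios used a prior count of 0.5 and an exact permutation test. Exonic lengths and positions came from GENCODE on GRCm38 (mm10). Alternatives were DESeq2 1.42.0, other scalings and filters, a replicate block and leaving out each heart. The fits were tested on simulated counts, and the motif search and the permutation test on short made-up inputs.

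Text names all 9 genes, called genes of the further list and isoforms of the 9; 1 pathway gene outside these lists is not reported here. The genes and lists were chosen with earlier results of these data known. Replicates are separate embryos per the labels.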

Additional observations from a re-analysis of the deposited data

How the results depend on the processing

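DESeq2, RLE and upper-quartile scaling, leaving out mitochondrially encoded and haemoglobin genes, and both other filters kept 5 of the 9 glycogen genes called, all higher. DESeq2 called 6 further pathway genes in place of 3 and 1749 of all genes in place of 830. Leaving out 1 heart at a time gave 0 to 5 of the 9 genes, 0 to 6 further pathway genes and 97 to 1256 of all genes. With the replicate number as a block, edgeR called 0 of the 9 genes, 0 further genes and 59 of all genes (5 of the 9 and 6 of the further genes had an unadjusted p under 0.05). The number of all genes under that unadjusted p was not counted for the blocked fit. The blocked edgeR fit gave each riser an unadjusted p of 0.00246 to 0.0146 and an adjusted p of 0.113 to 0.18. Pairing the hearts by number cannot change the mean ratio differences. An exact test that flips the signs of the paired differences gave p = 0.25 for *Pygl* to *Pygb*, 0.5 for *Pgm1* to *Pgm2* and 0.25 for *Gys1* to *Pygl*. Deviations from the genotype mean correlated at -0.216 to -0.0538 between same-numbered hearts (mean -0.151, against 0.0733 between hearts of different numbers). With 3 hearts per genotype, centred on their own mean, these values cannot show whether the numbers pair the hearts.

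Among genes that were not called, the log2 fold change took either sign over the fits that leave out a heart: -0.11 to 0.36 for *Gyg*, -0.046 to 0.21 for *Ugp2*, -0.15 to 0.10 for *Pgm1* (-0.0030 with the block), -0.38 to 0.093 for *Pygm*, -0.10 to 0.12 for *Pgm2l1* and -0.28 to 0.11 for *Pgm5*. Counts not divided by length gave mean shares of 34.9% (*Smyd1-KO*) and 15.5% (WT) for *Pygl*, 74.6% and 54.0% for *Pgm2* and 40.8% and 29.2% for *Ppp1r3c*. With principal transcript lengths, chosen after seeing the data, they were 39.7% and 18.4% for *Pygl* and 48.8% and 35.4% for *Ppp1r3c*. Only the 250 bases before the start held ACGTG in 16.6% and GCGTG in 28.2% of windows, and ACGTG for 6 of the 9 genes. The causes of these shifts were not tested. The 9 genes had 981 to 41562 counts per heart, so counting error was small beside the spread between hearts.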
